A study of Mus musculus with 19 samples.

Results

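The genes of translation initiation and elongation factors were followed in 3 cell types sorted from the central nervous system of mice with EAE, the experimental autoimmune encephalomyelitis used to model multiple sclerosis, by cell type and by the lentivirus the mice had received. Members were the genes whose symbol names an eIF1 to eIF6, eEF1 or eEF2 factor or a protein that binds or modifies one, together with the release factors Etf1, Gspt1 and Gspt2, the poly(A)-binding proteins Pabpc1 and Pabpc4, and Tpt1. The stress kinases Eif2ak2 and Eif2ak3 were left out. The rule matched 54 of the 6878 genes of the 3 deposited tables: 52 of 6376 genes in astrocytes, 38 of 3067 in microglia and 46 of 3776 in monocytes, with 37 in every table. Eef1a2, Eif2s3y, Eif4ebp2, Eif4ebp3, Gspt2 and Pabpc4 were not analysed here.

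All mice were female, of the strain C57Bl/6 and labelled wild type, were aged postnatal day 85 and had EAE. All had also received a lentivirus into the brain, in which the Gfap promoter drove GFP with a short hairpin RNA. The hairpin was a scrambled one (shScrmbl) or one against Xbp1 (shXbp1), whose protein switches on genes when the endoplasmic reticulum is under stress, so the comparison asks what an astrocyte-directed hairpin against Xbp1 changed in astrocytes and in the myeloid cells beside them. No group lacked the virus or EAE. EAE was induced with 25 µg of MOG35-55 peptide in 100 µL of PBS and 100 µL of CFA. There were 8 astrocyte libraries (4 per virus), 7 microglia libraries (4 shScrmbl, 3 shXbp1) and 4 monocyte libraries (2 per virus). The labels say that nervous systems were taken mouse by mouse but not which mouse gave which library, so p-values measure the spread between these libraries.

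Translation starts when eIF2 brings the initiator tRNA to the small ribosomal subunit, eIF3 and the eIF4 factors bring in the capped mRNA, and eIF1, eIF1A, eIF5 and eIF5B govern the choice of start codon and the joining of the large subunit. eEF1A then delivers aminoacyl-tRNAs, the eEF1B proteins recharge it with GTP, and eEF2 moves the ribosome to the next codon. Under stress, kinases phosphorylate eIF2, which lowers initiation on most mRNAs, and the unfolded protein response, in which XBP1 is a transcription factor, includes such a kinase arm.

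The deposited signal is a count of 3′ tags per gene scaled within each table, in which 1 count was worth 4.22 to 76.0 depending on the library. Libraries held 32842 to 302003 counts in astrocytes, 10039 to 122002 in microglia and 15654 to 112676 in monocytes, so a member at a signal near 100 rested on few counts in the shallow libraries. Astrocyte libraries held the astrocyte genes Slc1a3 (40.1 to 165) and Aqp4 (20.1 to 156), and Ttr of the choroid plexus took 14.2% to 26.7% of their counts. Gfap was looked for by symbol and synonym and was not found among the astrocyte genes. Microglia libraries held Tmem119 (156 to 836), and monocyte libraries held Ly6c2 (182 to 321) and Ccr2 (101 to 489). Markers also crossed between the sorts. Lyz2, a monocyte and macrophage marker, read 1292 to 20367 in microglia, 3084 to 16463 in monocytes and 85.3 to 3542 in astrocytes. Tmem119 in monocytes was 112 ± 60.1 with shScrmbl and 52.3 ± 74.0 with shXbp1. The part of other cell types in each sort was not tested. The targeted gene was not lower in astrocytes: Xbp1 read 20.1, 71.7, 79.9 and 27.6 in the shScrmbl libraries and 34.1, 52.9, 31.2 and 79.7 in the shXbp1 libraries, with a log2 difference of 0.02 (95% interval -0.62 to 0.67, limma) and an exact two-sided permutation p of 0.971. The signal therefore gave no check of the knockdown, and the differences reported are between libraries labelled shXbp1 and shScrmbl.

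Because the libraries count 3′ tags, signals of different genes are set side by side with no correction for transcript length. Whether molecular identifiers were used is not given in the sources used here. How evenly the transcripts of different genes were captured and counted was not tested. An order of genes is therefore an order of signal and may not be one of transcript number. Each cell type was scaled in its own table, so levels of different cell types are given side by side with no test. In these bulk samples fewer cells of a type and less RNA per cell cannot be told apart. Several of these genes, Eef1a1 and Tpt1 among them, have near-identical processed copies in the genome. How reads shared with a copy were counted is not given in the sources used here, so the levels of such genes are uncertain.

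A few elongation genes held much of the signal. Eef1a1, the gene of eEF1A (chr9:78478449-78489151, minus strand), was the highest member in 19 of 19 libraries. In astrocytes its signal was 2066, 1859.7, 1944 and 2317 with shScrmbl and 1705, 2377, 1978 and 2682 with shXbp1. Microglia libraries gave 3114, 4076, 4621 and 4520 with shScrmbl and 2204, 4278 and 4645 with shXbp1, the lowest value coming from the shallowest library. Monocyte libraries gave 4667 and 4653 with shScrmbl and 6067 and 4690 with shXbp1. The groups overlapped in astrocytes and microglia, whereas both monocyte shXbp1 values lay above both controls, replicate 2 by a small margin. That order held on the deposited signal only. As a share of counts, monocyte shXbp1 replicate 2 (0.396%) lay below both controls (0.449% and 0.454%), and replicate 1 (0.767%) above them. The mean signal over libraries was 2116 ± 320 (SD, n = 8) in astrocytes, 3922 ± 924 (n = 7) in microglia and 5019 ± 699 (n = 4) in monocytes. The ranges of astrocytes and monocytes did not overlap, and that of microglia overlapped the astrocyte range. The log2 difference, shXbp1 minus shScrmbl on the log2(signal + 50) scale, was 0.08 (limma adjusted p = 0.985) in astrocytes, -0.19 (adjusted p = 0.983) in microglia and 0.19 (adjusted p = 0.982) in monocytes.

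**Figure D1:**
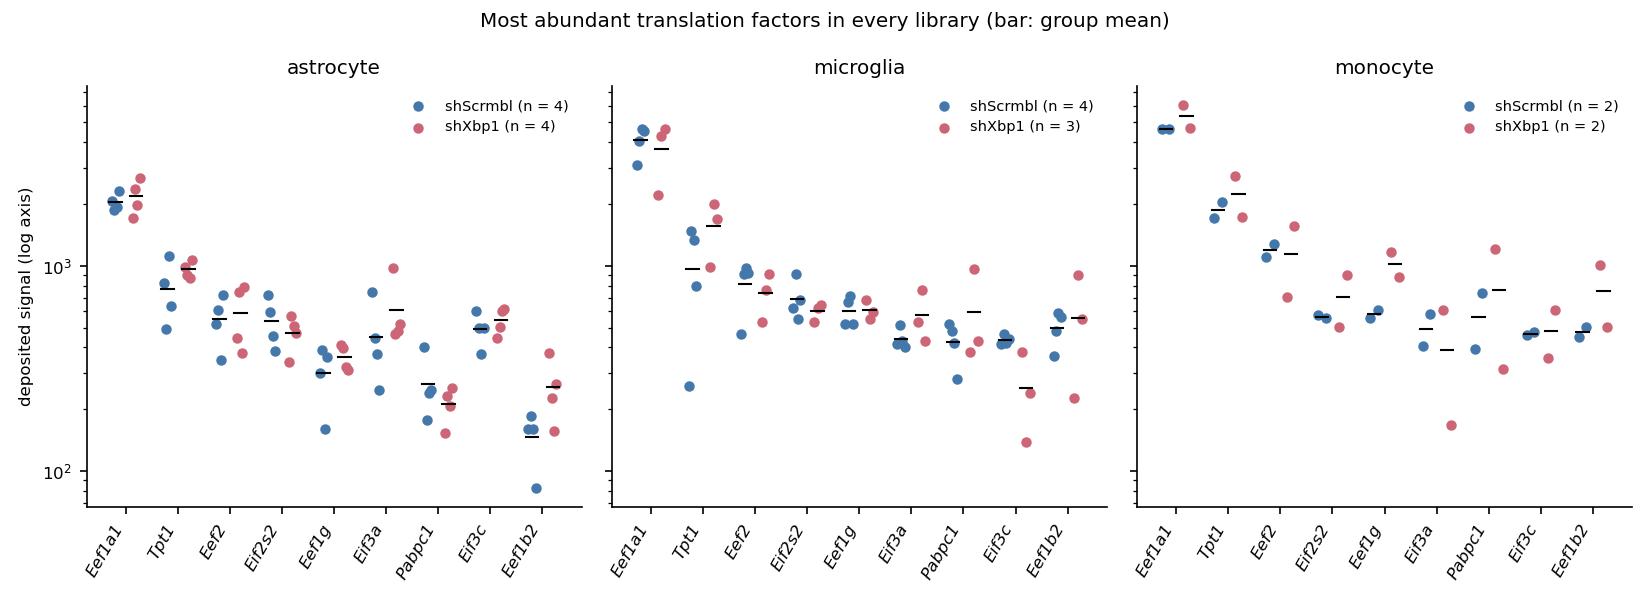
Deposited signal (log axis) of the 9 genes that were among the 6 highest members of any table, with 1 point per library, shScrmbl in blue, shXbp1 in red and black bars at the group means. Eef1a1 stands above the other members in 19 of 19 libraries, and the groups of most genes overlap.

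Eef2, the gene of the translocase eEF2 (chr10:81176631-81182498, plus strand), was among the 6 highest members in 17 of 19 libraries. Astrocyte libraries gave 522, 611, 346 and 717 with shScrmbl and 443, 746, 375 and 790.1 with shXbp1. In microglia the signal was 467, 909, 971 and 920 with shScrmbl and 532, 759 and 909.8 with shXbp1, and in monocytes 1104 and 1275 with shScrmbl and 708 and 1570.2 with shXbp1. The groups overlapped in each cell type, with 1 low microglia control and a wide monocyte shXbp1 pair. The log2 difference was 0.07 (limma adjusted p = 0.988) in astrocytes, -0.13 (adjusted p = 0.988) in microglia and -0.16 (adjusted p = 0.982) in monocytes. Eef2k, whose kinase inactivates eEF2, was measured in astrocytes only, at a signal of 20.0 ± 10.8 (SD, n = 8).

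The exchange factor eEF1B is built from the products of Eef1b2, Eef1d and Eef1g. Eef1g in microglia was 519, 669, 709 and 520 with shScrmbl and 684, 552 and 599 with shXbp1, and Eef1b2 was 363, 479.5, 588 and 560 with shScrmbl and 228, 897 and 551 with shXbp1. Both genes overlapped between the groups, and their log2 differences were 0.02 (limma adjusted p = 0.995) and 0.00 (adjusted p = 0.999). Eef1g in monocytes was 559 and 610.1 with shScrmbl and 1163 and 879 with shXbp1. Those groups did not overlap, but the log2 difference of 0.74 (95% interval -0.41 to 1.90) had a limma adjusted p of 0.950. Summed over the 3 genes, the monocyte signal was 1417 ± 146 with shScrmbl and 2353 ± 604 with shXbp1 (SD, n = 2 and 2). The same sum was 729.8 ± 118 and 868 ± 139 in astrocytes (n = 4 and 4) and 1380 ± 243 and 1516 ± 260 in microglia (n = 4 and 3). Eif5a, whose product helps ribosomes through difficult peptide bonds, averaged 57.8 ± 31.2 in astrocytes, 80.8 ± 65.4 in microglia and 121 ± 126 in monocytes.

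Tpt1, the gene of a small abundant protein reported to bind elongation factors (chr14:75845093-75848525, plus strand), was the second highest member in 15 of 19 libraries. In astrocytes its signal was 822, 493, 1118 and 634 with shScrmbl and 989, 905, 874 and 1069 with shXbp1. Microglia libraries gave 259.5, 1476, 1335 and 800 with shScrmbl and 988, 2001 and 1699.8 with shXbp1, and monocyte libraries 1705 and 2049 with shScrmbl and 2730.1 and 1738 with shXbp1. The groups overlapped in each cell type, and 1 microglia control lay far below the other libraries. The log2 difference was 0.36 (95% interval -0.20 to 0.92, limma adjusted p = 0.912) in astrocytes, 0.84 (-0.01 to 1.70, adjusted p = 0.738) in microglia and 0.22 (-0.95 to 1.38, adjusted p = 0.982) in monocytes.

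Since the hairpin was aimed at a transcription factor, the promoters of the members were searched for letters of the unfolded protein response. RefSeq promoter windows (GRCm38.p6, 250 bases before to 50 after the start) matched 41 of the 54 members. The letters TGACGTG, the core of the element bound by XBP1, occurred on either strand in 2 of these 41 members, Tpt1 and Eif3a, in 2.22% of the 27025 genes of the RefSeq table and in 3.36% of the 5216 of them that were also in the expression tables. The endoplasmic reticulum stress element, CCAAT and CCACG with 9 bases between them, was in 0 of 41 members and 0.137% of all genes, and the ATF4 element TGATGCAA in 0 of 41 and 1.03%. The E-box CACGTG, a site chosen after several others had been looked at, was in 11 of 41 members, 8.09% of all genes in the table and 11.5% of those 5216. A match describes letters and not a bound site, and no match speaks only of these letters in this window. Stretches are shown for the 2 genes with TGACGTG and for Eef2, as 1 example of the 11 members with the E-box. They run 5′ to 3′ in the direction of the gene, each ending at the base before the RefSeq start. Those matches are in capitals (CACGTCA is TGACGTG on the opposite strand). For Tpt1 the stretch lies inside the gene as GENCODE M21 draws it, since that annotation starts the gene further upstream.
Tpt1, chr14:75845226-75845255, plus strand: ccgccctgcgttCACGTCAccgctgacgac
Eif3a, chr19:60790694-60790793, minus strand: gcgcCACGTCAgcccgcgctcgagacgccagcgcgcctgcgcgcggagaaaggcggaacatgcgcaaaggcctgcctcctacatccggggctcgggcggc
Eef2, chr10:81176531-81176630, plus strand: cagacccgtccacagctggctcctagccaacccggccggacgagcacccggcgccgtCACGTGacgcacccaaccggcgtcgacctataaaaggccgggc
Neither gene with the XBP1 letters passed the limma threshold in any cell type: besides Tpt1, described above, Eif3a differed by a log2 value of 0.42 in astrocytes, 0.32 in microglia and -0.51 in monocytes (adjusted p = 0.891, 0.962 and 0.967).

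eIF2 carries the initiator tRNA and has subunits encoded by Eif2s1 (alpha), Eif2s2 (beta) and Eif2s3x (gamma). The signals of the 3 genes were far from equal: Eif2s2 (chr2:154871410-154892935, minus strand) exceeded both others in 19 of 19 libraries. Its mean was 506 ± 122 in astrocytes, where Eif2s1 averaged 47.6 ± 39.6 and Eif2s3x 101 ± 60.1 (SD, n = 8). Microglia gave 652 ± 125, 48.9 ± 48.4 and 54.2 ± 43.0 in the same order (n = 7), and monocytes 634 ± 180, 92.1 ± 74.8 and 97.1 ± 70.1 (n = 4). Within libraries, Eif2s3x lay above Eif2s1 in 6 of 8 astrocyte libraries and equalled it in the other 2. In microglia it was above in 2 of 7 libraries, equal in 3 and below in 2, and in monocytes above in 2 of 4, equal in 1 and below in 1.

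Per library, Eif2s2 in astrocytes was 722, 595, 453 and 386 with shScrmbl and 341, 568, 510 and 471 with shXbp1. Microglia gave 623, 909, 551 and 680 with shScrmbl and 532, 621 and 646 with shXbp1, and monocytes 573 and 555 with shScrmbl and 506 and 900.3 with shXbp1. The groups overlapped in each cell type, and the log2 differences were -0.16, -0.17 and 0.24 (limma adjusted p = 0.977, 0.988 and 0.982). The exchange factor eIF2B, which reloads eIF2 with GTP, was seen as 5 subunit genes in astrocytes, with means of 29.7 to 37.1, and as Eif2b4 and Eif2b5 only in monocytes. Eif2ak1, an eIF2 kinase kept by the rule, was 39.6 ± 28.5 in astrocytes and 39.2 ± 9.49 in monocytes.

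eIF3, the largest initiation factor, holds the small subunit ready for the mRNA, and 12 of its subunit genes were measured in astrocytes and microglia and 11 in monocytes. Summed over them the signal was 2059 ± 193 in astrocytes, 2373 ± 297 in microglia and 3050 ± 91.7 in monocytes (SD, n = 8, 7 and 4). Eif3a and Eif3c led in astrocytes (530 ± 226 and 517 ± 86.2), ahead of Eif3k (218 ± 73.2). In monocytes Eif3k (531 ± 255), Eif3c (474 ± 104) and Eif3a (441 ± 203) had no fixed order, each pair of them standing one way in 2 of 4 libraries and the other way in 2. Eif3g was lowest in astrocytes, at 19.8 ± 17.2.

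Eif3a in astrocytes was 742, 443, 373 and 248 with shScrmbl and 972, 467, 479 and 518 with shXbp1. Eif3c in astrocytes was 602, 498, 373 and 496 with shScrmbl and 443, 505, 604 and 618 with shXbp1. Both overlapped, and the high Eif3a values came from replicate 1 of either virus. The log2 difference was 0.42 (limma adjusted p = 0.891) for Eif3a and 0.13 (adjusted p = 0.977) for Eif3c.

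**Figure D2:**
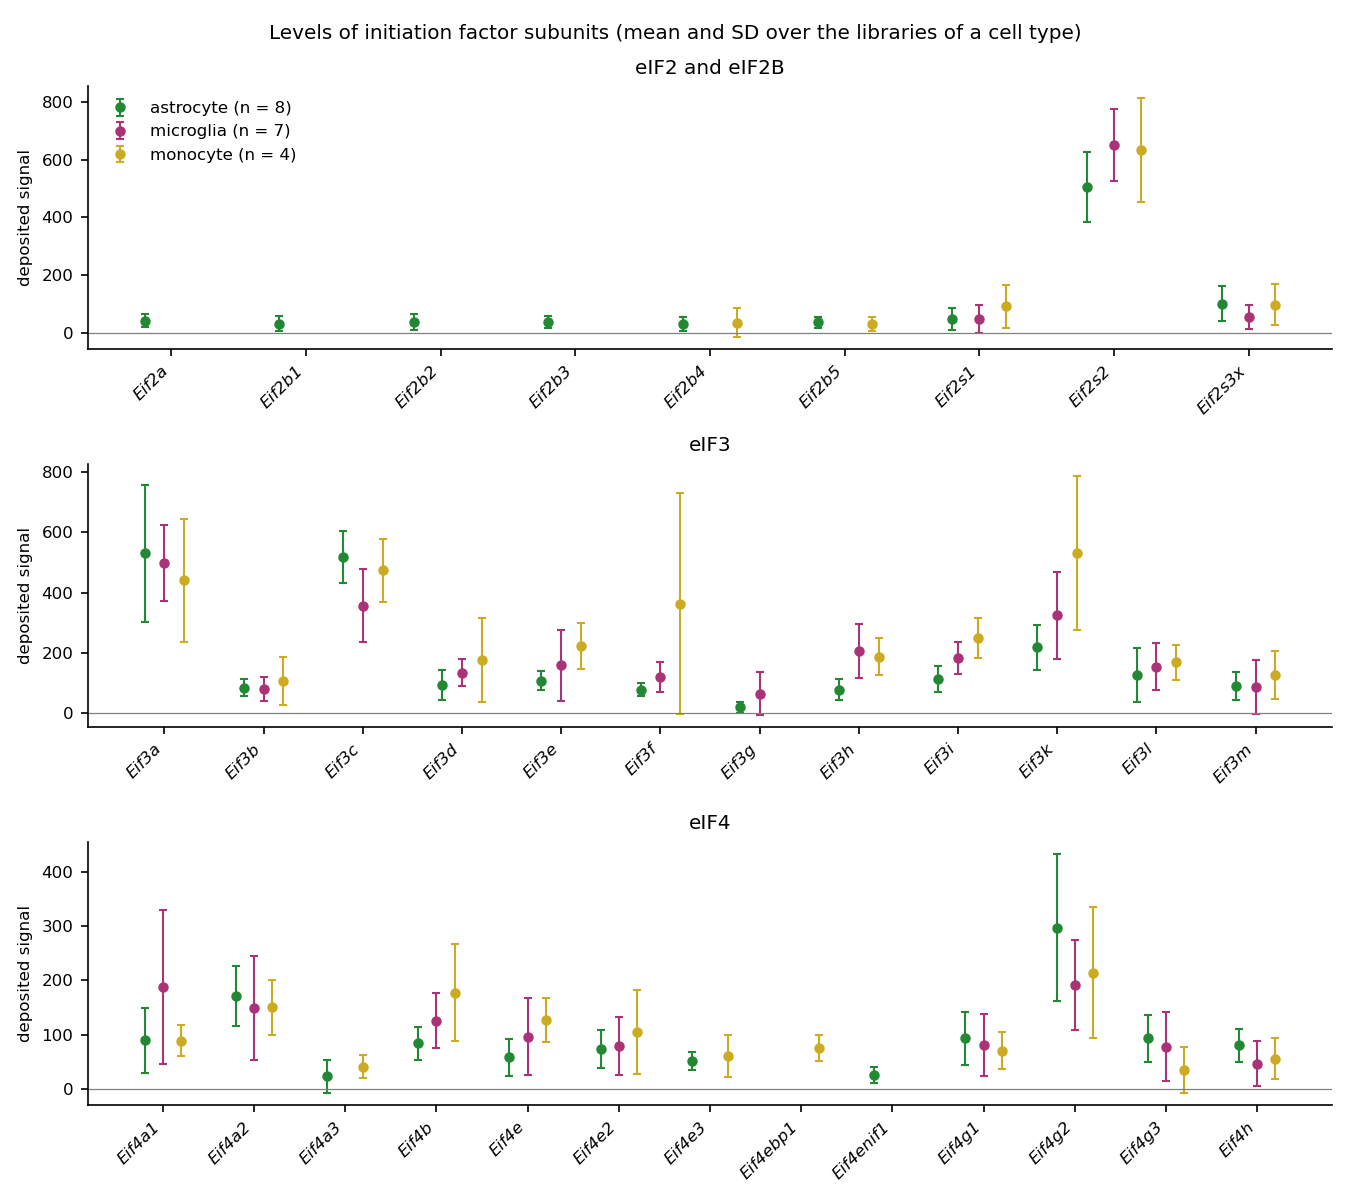
Deposited signal (mean and SD over the 8 astrocyte, 7 microglia and 4 monocyte libraries) of the measured genes of eIF2 and eIF2B, eIF3, and eIF4 with the eIF4E-binding proteins and Eif4a3. Eif2s2 stands far above Eif2s1 and Eif2s3x in each cell type, and Eif3a and Eif3c lead eIF3 in astrocytes.

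The eIF4 group binds the cap (Eif4e and its relatives Eif4e2 and Eif4e3), bridges it to the ribosome (Eif4g1, Eif4g2, Eif4g3) and unwinds the leader (the helicases Eif4a1 and Eif4a2 with Eif4b and Eif4h). Eif4g2, whose product lacks the part that binds eIF4E, had the highest mean of the group in each cell type, at 297 ± 136 in astrocytes, 192 ± 83.6 in microglia and 215 ± 121 in monocytes (SD, n = 8, 7 and 4). Eif4g1, the main scaffold, averaged 93.3 ± 49.2, 80.5 ± 57.8 and 70.2 ± 34.2. The order of the helicase pair was not the same in each cell type: Eif4a2 exceeded Eif4a1 in 8 of 8 astrocyte libraries (172 ± 55.1 against 89.2 ± 59.3), in 2 of 7 microglia libraries (149 ± 95.3 against 188 ± 142) and in 3 of 4 monocyte libraries (150 ± 51.2 against 88.8 ± 28.5). Eif4ebp1, a repressor of eIF4E, was measured in monocytes only (75.7 ± 23.7). Pabpc1, the poly(A)-binding protein that joins eIF4G, averaged 239 ± 74.4, 496 ± 220 and 664 ± 410. In monocytes Pabpc1 was 391 and 738 with shScrmbl and 1213 and 314 with shXbp1, so that the shXbp1 pair lay on both sides of the controls (log2 difference 0.20, limma adjusted p = 0.982).

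Of the start codon factors, Eif5b was 371 ± 79.4 in astrocytes, 241 ± 159 in microglia and 244 ± 83.5 in monocytes. Eif1, which keeps the scanning ribosome from stopping early, averaged 211 ± 74.3, 171 ± 92.3 and 253 ± 141, and its relative Eif1b 56.7 ± 39.7 in astrocytes and 41.5 ± 9.70 in monocytes. Of the release factors, Etf1 averaged 86.5 ± 35.4, 107 ± 82.7 and 115 ± 26.0, and Gspt1, its GTPase partner, was measured in astrocytes (77.6 ± 60.6). Eif6, which keeps the large subunit apart from the small one, averaged 28.7 ± 16.1, 57.7 ± 48.5 and 60.8 ± 36.2.

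Summed over all members, translation factors held 0.989% ± 0.120 of the counts in astrocytes, 1.28% ± 0.139 in microglia and 1.74% ± 0.490 in monocytes (SD, n = 8, 7 and 4). Over the 37 members and 2574 genes that all tables share, the shares were 1.15% ± 0.175, 1.33% ± 0.140 and 1.85% ± 0.552. The balance between the steps of translation also differed side by side. Among the counts of the 37 shared members, initiation factors (28 genes, Pabpc1 counted with them) held 51.3% ± 4.41 in astrocytes, 41.1% ± 5.85 in microglia and 37.4% ± 2.46 in monocytes. Elongation factors (6 genes) held 38.2% ± 4.62, 48.3% ± 4.81 and 49.2% ± 2.26. Eef1a1 alone held 21.5% ± 2.75, 30.2% ± 4.20 and 29.4% ± 1.66 of the counts of all members, so much of the elongation share was 1 gene of uncertain level. The astrocyte and monocyte ranges of the initiation share (44.4% to 56.9% and 34.7% to 40.0%) did not overlap, while the microglia range (36.4% to 52.4%) met both. Cytosolic ribosomal protein genes (75 in each table) differed more: they held 6.29% ± 0.830, 17.0% ± 3.16 and 21.3% ± 4.19 of all counts, or 6.84 ± 1.13, 13.4 ± 2.69 and 13.2 ± 4.42 counts for every count of the shared translation factors. The part of Ttr and other non-astrocyte RNA in the astrocyte shares was not tested beyond leaving Ttr out, which raised the astrocyte share to 1.25% ± 0.155.

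**Figure D3:**
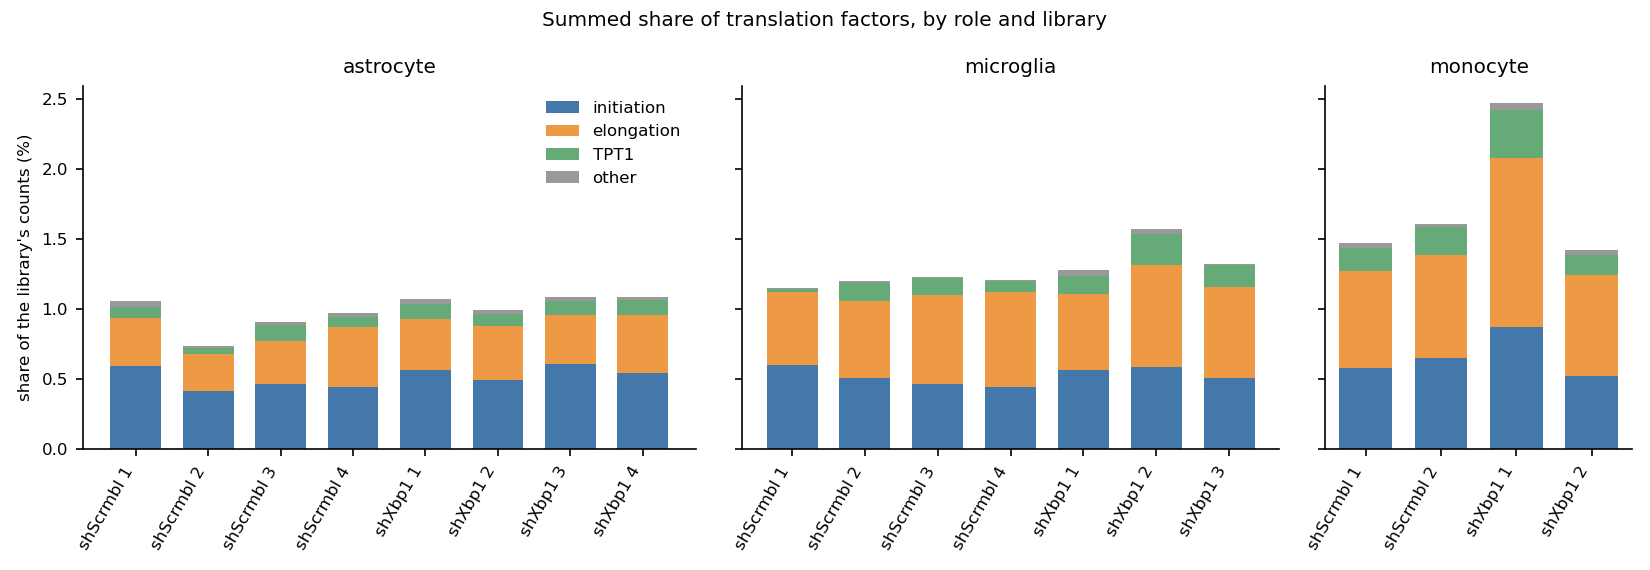
Share of a library's counts (%) held by all measured members, stacked as initiation factors (with Pabpc1), elongation factors, TPT1 and others, with 1 bar per library. The total runs from 0.737% to 1.09% in astrocytes, from 1.15% to 1.57% in microglia and from 1.42% to 2.47% in monocytes, and the highest bar is the shallowest monocyte library.

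By virus, the summed share in astrocytes was 1.06%, 0.737%, 0.908% and 0.974% with shScrmbl and 1.07%, 0.993%, 1.08% and 1.09% with shXbp1. The groups overlapped through 1 control. Astrocyte markers held 0.272% to 0.432% of counts with shScrmbl and 0.414% to 0.468% with shXbp1 (12 of 15 higher), monocyte and macrophage markers 0.0575% to 0.439% and 0.0789% to 0.224% (9 of 11 lower), and Ttr 22.8% ± 2.69 and 18.9% ± 4.06 (SD, n = 4 and 4). Of all astrocyte genes tested, 60.8% were higher with shXbp1. The part of these markers in the difference by virus was not tested. Without Ttr the share was 1.20% ± 0.213 with shScrmbl and 1.31% ± 0.0497 with shXbp1. Microglia gave 1.15%, 1.20%, 1.23% and 1.21% with shScrmbl and 1.275%, 1.57% and 1.32% with shXbp1, which did not overlap, although the 95% Wilson interval of the lowest shXbp1 library (128 of 10039 counts, 1.07% to 1.51%) covered all 4 controls. Monocytes gave 1.47% and 1.61% with shScrmbl and 2.47% (386 of 15654 counts, Wilson interval 2.23% to 2.72%) and 1.42% with shXbp1. These intervals cover counting error only. In microglia, monocyte and macrophage marker genes held 0.676% to 2.46% of counts with shScrmbl and 0.379% to 1.18% with shXbp1, ranges that overlapped. Of the 15 measured, 14 were lower with shXbp1, and of all microglia genes tested 39.3% were higher. The part of these markers in the microglia share was not tested.

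Between the viruses no member passed the limma test in any cell type. In astrocytes 0 of 52 members and 0% of all genes were called (limma, adjusted p under 0.05). edgeR's quasi-likelihood test on the recovered counts called 0 members and 0.0157% of genes. An unadjusted p under 0.05 was found for 4 members by limma (7.69%, against 5.875% of all genes) and 3 by edgeR (5.77%, against 6.52%). Of the members 32 were higher and 20 lower with shXbp1, 61.5% against 60.8% of all genes, and the median log2 difference was 0.10 against 0.09 over all genes. The shXbp1 libraries lay wholly above the controls for 4 members (Eif3f, Eif4g3, Eif5 and Etf1), against 2.37% of all genes, and wholly below for 2 (Eif3d and Eif4e3), against 0.785%.

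Eif5, which makes eIF2 hydrolyse its GTP at the start codon (chr12:111538016-111546752, plus strand), had the highest astrocyte difference. Its signal was 120.4, 105, 79.9 and 82.7 with shScrmbl and 289.9, 178, 229 and 166 with shXbp1. All 4 shXbp1 libraries lay above all controls, with a log2 difference of 0.84 (95% interval 0.18 to 1.50, limma adjusted p = 0.743; edgeR 1.06, adjusted p = 0.699). Eif4g3, a scaffold relative of eIF4G, was 40.1, 59.0, 53.3 and 82.7 with shScrmbl and 171, 96.2, 135 and 106 with shXbp1, again with no overlap (log2 difference 0.70, limma adjusted p = 0.821). Eif4g2 was 441, 224, 133 and 110.3 with shScrmbl and 426, 241, 406 and 398 with shXbp1, and overlapped through the high control (0.71, adjusted p = 0.816). In the other direction stood Eif3d, an eIF3 subunit that can bind caps itself (chr15:77958998-77970813, minus strand).

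Eif3d in astrocytes was 120.4, 105, 159.8 and 138 with shScrmbl and 0, 62.6, 72.9 and 86.3 with shXbp1, where the 0 allows a signal of up to 51.2 in that library. All shXbp1 values were below all controls, and the log2 difference was -0.87 (95% interval -1.54 to -0.19, limma adjusted p = 0.743; edgeR -1.01, adjusted p = 0.762). Eif4e, the cap-binding protein, was 80.2, 88.6, 53.3 and 82.7 with shScrmbl and 0, 91.4, 20.8 and 46.5 with shXbp1, and Eif1b was 60.2, 33.7, 133 and 82.7 with shScrmbl and 34.1, 43.3, 0 and 66.4 with shXbp1. Both overlapped, with log2 differences of -0.59 and -0.57 (limma adjusted p = 0.879 for each). The 0 of Eif1b allows a signal of up to 31.2. None of these 6 genes passed the threshold after adjustment over 6366 genes.

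**Figure D4:**
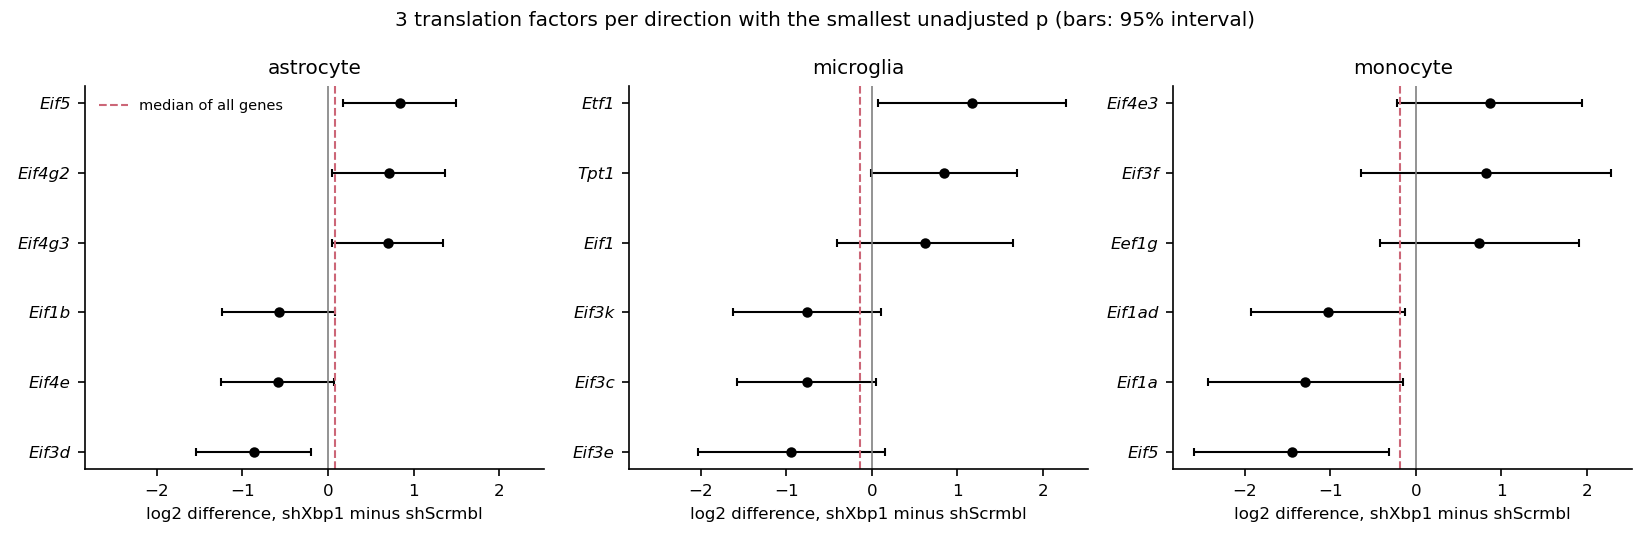
Log2 difference (shXbp1 minus shScrmbl, on log2(signal + 50)) with its 95% limma interval for the 3 higher and 3 lower members with the smallest unadjusted p in each cell type, with the median of all genes as a dashed line. The intervals are wide, and 8 of the 18 leave out 0 before adjustment for the number of genes.

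Microglia showed 19 members higher and 19 lower with shXbp1. No member was called by limma or by edgeR, against 0.0326% and 0.391% of all genes. An unadjusted p under 0.05 was found for 1 member by limma (2.63%, against 6.65% of all genes) and 0 by edgeR (against 5.48%). The median log2 difference was -0.06 for members and -0.14 for all genes. The members' median lay near 0 and its sign turned in several alternatives: it was 0.07 after quantile normalization and 0.07 after scaling to library totals, which moved the median of all genes up by 0.16 and 0.12, and 0.042 with edgeR, 0.048 with DESeq2 and 0.0042 with a mean signal of at least 50. The members' median minus that of all genes was 0.08 as first given, 0.05 after quantile normalization and 0.09 after scaling to library totals. The shXbp1 libraries lay wholly above the controls for 0 members, against 2.32% of genes, and wholly below for 1 (Eif3c), against 4.92%.

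Etf1, which recognises stop codons, was 51.9, 101, 65.3 and 0 in microglia with shScrmbl and 228, 207 and 95.8 with shXbp1. The groups overlapped, the 0 allows a signal of up to 120.0, and the log2 difference was 1.17 (95% interval 0.08 to 2.26, limma adjusted p = 0.710; edgeR 1.09, adjusted p = 0.992) on 16 and 10 counts. Eif1 was 0, 177, 159 and 240 with shScrmbl and 228, 276 and 119.7 with shXbp1, where the 0 allows up to 156 (log2 difference 0.62, adjusted p = 0.875). It overlapped as well, as Tpt1 did.

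Of the 19 lower microglia members, the 3 with the smallest unadjusted p were eIF3 subunits. Eif3c (chr7:126546455-126566411, minus strand) was 415, 467, 420.1 and 440 with shScrmbl and 380, 138 and 239 with shXbp1, all below the controls (log2 difference -0.76, 95% interval -1.57 to 0.05, limma adjusted p = 0.739). Eif3k was 415, 391, 448 and 280 with shScrmbl and 76.0, 207 and 455 with shXbp1. Eif3e was 259.5, 227, 299 and 40.0 with shScrmbl and 76.0, 0 and 215 with shXbp1, where the 0 allows up to 207. Both overlapped (log2 differences -0.76 and -0.94, adjusted p = 0.758 and 0.759), and both were higher with shXbp1 when only libraries of at least 20000 counts were kept (0.28 and 0.37 by limma), which left 1 shXbp1 library. Of the 12 eIF3 genes 7 were lower and 5 higher in microglia, and the summed eIF3 signal was 2491 ± 305 with shScrmbl and 2217 ± 245 with shXbp1.

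Monocytes had 26 members higher and 20 lower with shXbp1, 56.5% against 36.3% of all genes, and a median log2 difference of 0.10 against -0.19. Markers of other cells and of myeloid cells differed with the same groups. Monocyte and macrophage markers held 2.57% to 2.83% of counts with shScrmbl and 1.42% to 2.24% with shXbp1 (10 of 17 higher, 7 lower). Neutrophil markers held 0.0683% to 0.0915% and 0.0247% to 0.0383% (2 of 8 higher, 6 lower). T, NK and B cell markers held less with shScrmbl, 0.234% to 0.371% against 0.385% to 0.492% (6 of 9 higher, 3 lower). Among them Cd3g was 473 ± 102 with shScrmbl and 862.5 ± 290 with shXbp1. None of these markers was called by limma or edgeR, and their part in the members' differences was not tested. No member was called by limma or by edgeR, against 0% and 0.0265% of genes. An unadjusted p under 0.05 was found for 3 members by limma (6.52%, against 5.56% of all genes) and 2 by edgeR (4.35%, against 4.72%). With 2 libraries against 2, an exact permutation test of a single gene cannot go below p = 0.333. On the deposited signal the shXbp1 libraries lay wholly above the controls for 8 members (Eef1a1, Eef1b2, Eef1d, Eef1g, Eif2ak1, Eif3l, Eif4a3 and Eif4e3), 17.4% of those measured against 9.85% of genes. They lay wholly below for 9 (Eif1a, Eif1ad, Eif2b5, Eif3e, Eif3h, Eif4a1, Eif4g1, Eif5 and Eif5b), 19.6% against 25% of genes. Of the 8 higher members, at least Eef1a1, Eef1b2 and Eif2ak1 did not lie wholly above as a share of counts. The 17.4% therefore holds for the deposited signal only. Without shXbp1 replicate 2, which left the shallowest library alone against the controls, the members' median (limma) turned to -0.14. Without shXbp1 replicate 1 that median was 0.12.

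In monocytes the 3 lower members with the smallest p were start codon factors or resembled one, a role of which 4 of 7 members were lower and 3 higher. Eif5 was 97.8 and 182 with shScrmbl and 0 and 41.9 with shXbp1 (log2 difference -1.45, 95% interval -2.59 to -0.31, limma adjusted p = 0.804). On 27 against 2 counts the pooled ratio was 5.22 (exact binomial interval 1.31 to 45.3, counting error only), and the 0 allows up to 152. Eif1a, a gene of eIF1A, was 69.9 and 127 with shScrmbl and 0 and 20.9 with shXbp1 (-1.29, adjusted p = 0.804), on 19 against 1 counts (ratio 7.34, interval 1.17 to 305). Eif1ad, which resembles eIF1A in sequence, was 69.9 and 36.4 with shScrmbl and 0 in both shXbp1 libraries. Against a floor of 3 counts over the group, Eif1ad was at least 1.16-fold lower (limma adjusted p = 0.804). With a pseudocount of 1 limma called it (adjusted p = 0.00516), as the only member of 46 and 1 of 101 genes called of 3775. Both shXbp1 values of Eif1ad being 0, that group had no spread in this fit. All 3 genes had no overlap between the groups and few counts.

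On the higher side, Eif4e3 was 14.0 and 45.5 with shScrmbl and 101 and 83.7 with shXbp1 (log2 difference 0.86, limma adjusted p = 0.942), on 6 and 6 counts. Eif3f was 168 and 228 with shScrmbl and 910 and 147 with shXbp1 (0.82, adjusted p = 0.967), and the shXbp1 pair lay on both sides of the controls. The Eif3f difference was -0.32 without shXbp1 replicate 1 and 1.97 without shXbp1 replicate 2, so 1 library decided its direction. Eef1g, given with the elongation factors, was the third.

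Other genes of the pathway were counted from lists chosen for their role, and their splits are read against all genes tested, of which 60.8% were higher in astrocytes, 39.3% in microglia and 36.3% in monocytes. Of the eIF2 phosphorylation and integrated stress response list, 6 of 14 measured genes were higher and 8 lower in astrocytes, 3 and 8 of 11 in microglia, and 1 and 10 of 11 in monocytes, and none was called by limma or edgeR. Dnajc3, an inhibitor of eIF2 kinases that resides in the endoplasmic reticulum, had the smallest p of the list in astrocytes, 199 ± 117 with shScrmbl and 336 ± 85.7 with shXbp1 (log2 difference 0.71, limma adjusted p = 0.809). Of mTORC1 and MNK genes, 8 of 18 were higher and 10 lower in astrocytes, 3 and 5 of 8 in microglia and 2 and 8 of 10 in monocytes, again with none called. Rps6kb1, the S6 kinase, was 16.9 ± 33.7 with shScrmbl and 73.3 ± 11.3 with shXbp1 in astrocytes (0.99, adjusted p = 0.743). Genes of mRNA-binding partners and ribosome recycling split 14 and 11 of 25, 8 and 8 of 16, and 8 and 12 of 20. Genes that modify translation factors split 10 and 2 of 12 in astrocytes, 6 and 2 of 8 in microglia and 5 and 5 of 10 in monocytes. Cytosolic aminoacyl-tRNA synthetases split 10 and 10 of 20, 2 and 7 of 9, and 6 and 9 of 15. Eprs, which charges glutamate and proline tRNAs, was 114 ± 36.1 with shScrmbl and 213 ± 76.8 with shXbp1 in astrocytes (0.66, adjusted p = 0.850) and 250 ± 57.8 and 77.6 ± 38.3 in monocytes (-1.26, adjusted p = 0.818). No gene of these 5 lists was called by limma or edgeR in any cell type.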

How the data were processed

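Each cell type came as a deposited table of signal values, 1 column per library. The values were whole counts multiplied by a fixed step per library: 100% of the values above 0 fell within 0.01 of a whole count, and the counts so recovered gave back the deposited signal when scaled with edgeR's TMM factors (relative difference at most 1.01e-09). Per the labels, libraries were made by 3′ digital gene expression. The submitters' processing notes list limma 3.34.1, BWA 0.7.10 and the mm10 build with no roles, and the counting, annotation and use of molecular identifiers are not given in the sources used here. Gene symbols were matched through letter case and synonyms, and gene positions were read from GENCODE M21 (GRCm38, mm10).

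The shXbp1 and shScrmbl libraries were compared within each cell type with limma 3.58.1 (trend and robust, R 4.3.3) on log2(signal + 50). Genes needed a signal above 0 in a number of libraries equal to the size of the smaller group (6366, 3066 and 3775 genes, all measured members included), and p-values were adjusted by Benjamini-Hochberg with a threshold of 0.05. The pseudocount understates differences of low genes. edgeR 4.0.16 (quasi-likelihood) and DESeq2 1.42.0 were run on the recovered counts as alternatives. Shares are of recovered counts.

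The members and lists were chosen with earlier results of these data known. Values in every library are given for the 6 highest members of a table and for the 3 higher and 3 lower ones with the smallest unadjusted p. Up to 4 members of a role, pairs of related genes and up to 3 genes of a list were also named. The test code was tested on simulated data. Python 3.11.15, scipy 1.17.1 and matplotlib 3.10.9 served for exact tests and plots.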

Additional observations from a re-analysis of the deposited data

Results flagged for a closer look

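Among the 38 groups of 4 libraries looked at, 4 had a library far from the other 3 (gap over range above 0.829), where chance alone flags about 1 in 20. Eif3a read 972.06 in astrocyte shXbp1 replicate 1, above the other shXbp1 libraries. Eif4g2 read 240.61 in astrocyte shXbp1 replicate 2, below the others. The summed share of translation factors was 0.99292% in astrocyte shXbp1 replicate 2, below the others. Eef2 read 467.15 in microglia shScrmbl replicate 1, below the other controls.

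For 2 genes, every shXbp1 library lay on one side of the controls in astrocytes and on the opposite side in monocytes, and the difference between the cell types was not tested. Eif5 had a log2 difference of 0.8388 in astrocytes and -1.4505 in monocytes. Eif4e3 had -0.34915 in astrocytes and 0.86279 in monocytes.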

How the results depend on the processing

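No member was called in astrocytes or microglia under any alternative. Of 26 named log2 differences 15 kept their direction in every alternative. In the shallowest microglia and monocyte libraries 1 count was worth a signal of 76.0 and 50.6.

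Genes called were 2 after quantile normalization in astrocytes, and in microglia 13 after it, 2 after scaling to library totals, and 0 with pseudocounts of 1 or 10, a mean signal of at least 50, or DESeq2. In monocytes a pseudocount of 1 called 101 genes and 1 member. edgeR called 1, 12 and 1 genes. The monocyte members' median was 0.23 with edgeR, 0.24 with its own expression filter and 0.28 with DESeq2.

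Whether equal replicate numbers mark paired libraries could not be settled. Correlations of same-numbered deviations were -0.0561 to 0.0649 in astrocytes, 0.00585 to 0.0397 in microglia and -0.163 in monocytes. Not every library correlated best with its own number. With 2 libraries per virus the monocyte values mirror each other by construction and decide nothing. With the replicate block, limma called 2 and edgeR 3 genes in astrocytes, against 0 and 1 without it. In microglia they called 20 and 24, against 1 and 12 without it. Crossed pairing in monocytes, added after seeing the data, gave 4 genes by limma, 0 members, and a members' median of 0.21 by edgeR.

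Leaving out 1 library, with limma or edgeR, gave 0 to 8 genes in astrocytes, 0 to 23 in microglia, and 0 to 513 genes, 0 to 9 members and a members' median of -0.15 to 0.15 in monocytes. The lone monocyte library of a virus was assumed to vary like the others. Log2 differences ranged from -0.43 to 0.35 for Xbp1, -0.054 to 0.20 for Eef1a1 and -0.11 to 0.27 for Eef2 in astrocytes, -0.39 to 0.14 for Eef1a1, -0.38 to 0.074 for Eef2 and -0.088 to 0.90 for Eif1 in microglia, and -0.037 to 0.38 for Eef1a1, -0.75 to 0.39 for Eef2, -0.16 to 0.54 for Tpt1 and -0.50 to 2.17 for Eif3f in monocytes. The cause of these turns was not tested.

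Under other settings directions also turned. Xbp1 was -0.037 after quantile normalization, -0.080 with edgeR, -0.13 with DESeq2 and -0.10 with edgeR and the replicate block. In microglia, Eef1a1 was 0.056 after quantile normalization, 0.012 with library totals and 0.032 with edgeR's expression filter, and Eef2 was 0.013, 0.068 and 0.0028. Monocyte Eef2 was 0.0055 with DESeq2.

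Keeping only libraries of at least 20000 counts, an alternative added after seeing the data, gave 0 genes by limma and edgeR and a members' median of 0.18 in microglia, and 178 and 61 genes in monocytes. In microglia Eef1a1 was then 0.078 (edgeR 0.015), Eif1 -0.50 (edgeR -0.61), Eif3k 0.28 (edgeR 0.17) and Eif3e 0.37. In monocytes Tpt1 was -0.10 (edgeR -0.16), Eef2 0.39 (edgeR 0.35), Eif3f -0.32 (edgeR -0.50) and Eef1a1 -0.037 by edgeR.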

Other observations

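Immediate early genes, which are known to rise within minutes of cell handling or activation, had most of their members lower with shXbp1 in each cell type: 11 of 13 in astrocytes, 11 of 15 in microglia and 14 of 15 in monocytes, with none called by limma or edgeR. Of all genes tested, 60.8%, 39.3% and 36.3% were higher in the same order, so that most genes were lower in microglia and monocytes as well. Klf4 was 115 ± 43.8 with shScrmbl and 34.8 ± 23.2 with shXbp1 in astrocytes (SD, n = 4 and 4; limma adjusted p = 0.743) and 157 ± 124 and 41.3 ± 38.4 in microglia (n = 4 and 3; adjusted p = 0.739). In monocytes Atf3 was 385 ± 189 and 119 ± 97.5 (n = 2 and 2; adjusted p = 0.815).

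In microglia, 2 of 15 measured monocyte and macrophage markers passed the edgeR threshold, and none passed that of limma. The neutrophil granule gene Ngp was 185 ± 57.5 with shScrmbl and 7.98 ± 13.8 with shXbp1 (limma adjusted p = 0.301, edgeR 0.217), and the NADPH oxidase gene Cybb was 819 ± 597 and 222 ± 63.7 (limma adjusted p = 0.301, edgeR 0.0164).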
